A study of Homo sapiens with 3 samples.

Results

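The respiratory chain genes described here are the nuclear genes of complexes I to V of the mitochondrial inner membrane, chosen by gene symbol alone (NDUFA, NDUFB, NDUFC, NDUFS and NDUFV genes, SDHA to SDHD, UQCR genes, COX5 to COX8 genes and ATP5 genes), with no measured value used. They comprised 79 of 19775 named genes and 151 probe sets. Of the 79 genes, 74 code for proteins, 3 give long noncoding RNAs (NDUFV1-DT, NDUFB2-AS1 and NDUFV2-AS1) and 2 are pseudogenes (COX6A1P1 and ATP5MC2P1). The cells were MDA-MB-231, a single established line from a human breast cancer, usually counted among basal-type, estrogen receptor-negative lines. The groups were tamoxifen at 1 µM, estradiol at 1 µM and vehicle (0.1% ethanol), each for 3 h. All 3 cultures had first spent 4 h in medium with 10% charcoal-stripped serum, from which most steroid hormone has been removed. Tamoxifen is a drug that blocks the estrogen receptor in breast, and estradiol is the main natural estrogen. Each group had 1 array, so no value has a replicate spread, no difference has a test, and treatment and array cannot be told apart. The series title asks for the early effect of tamoxifen on gene expression.

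The respiratory chain passes electrons from NADH (through complex I) and from succinate (through complex II) to ubiquinone, then through complex III and cytochrome c to oxygen at complex IV. Complexes I, III and IV pump protons across the inner membrane, and complex V, the ATP synthase, uses the returning protons to make ATP. Most subunits are encoded in the nucleus, a few in mitochondrial DNA, and nuclear factors such as NRF1, GABPA and the coactivator PPARGC1A are known regulators of many of the nuclear genes. In cancer cells the chain also serves to regenerate the electron acceptors that nucleotide and aspartate synthesis needs.

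Each deposited log2 value is a deviation from an unstated baseline of its probe set and not a level. Base 2 was taken from the named normalisation method, and the direction (higher meaning more RNA) is assumed. Depth has no meaning for arrays, and the number of arrays limits the precision. The vehicle values were narrower than the others, with an SD over all probe sets of 0.20 against 0.46 with tamoxifen and 0.47 with estradiol. Differences from vehicle are therefore also given with the vehicle value doubled where that changes which of the genes described pass 1.5-fold, the size rule used in place of a test. Respiratory chain genes whose direction turns under doubling are named below. For other genes such turns are given in part only, so a direction without a doubled value may not hold on that scale. The vehicle values also lay on numerical steps finer by 1 than those of the other columns, which the level bands allowed for. What this says about the vehicle scale was not tested, and neither the deposited nor the doubled version was preferred. A brightness floor was read from the numerical steps of the values, and genes with a probe set whose level lay at about 4 (log2) or above were kept. Of the 79 genes, 72 (91.1%) lay above the floor and 65 (82.3%) reached the band from 8 to 16, against 12068 (61.0%) and 4981 (25.2%) of all named genes. Of the 10 basal-type markers listed for the line, 9 had a probe set of their own name, and those 9, among them VIM, CD44, AXL and CAV1, all lay in the 8 to 16 band. Of 8 luminal or epithelial markers 4 lay below the floor (PGR, FOXA1, CDH1 and ERBB3). The other 4, ESR1 (the estrogen receptor alpha gene itself), GATA3, EPCAM and KRT19, lay above it, 3 of them in the 8 to 16 band. Of 6 leukocyte markers 5 had a probe set of their own name. PTPRC lay above the floor and CD3E, CD14, LYZ and CD2 below it. Of 6 fibroblast and endothelial markers PECAM1 and VWF lay above it and CDH5, DCN, LUM and PDGFRB below. None of PTPRC, PECAM1 and VWF reached the 8 to 16 band. In RNA taken from a whole culture, fewer expressing cells and less RNA per cell cannot be told apart.

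At 3 h, most respiratory chain genes lay within 1.5-fold of vehicle with either ligand. With tamoxifen, SDHD was higher past 1.5-fold and ATP5F1D, NDUFA11 and NDUFV3 were lower, which are 1 and 3 of the 72 genes. Across all named genes above the floor 6.97% were higher and 4.33% lower in that comparison. With estradiol, ATP5F1D was lower and no respiratory chain gene was higher, against backgrounds of 2.65% and 5.83%. Between tamoxifen and estradiol none of the 72 genes differed by 1.5-fold in either direction, against 1.57% of all named genes higher and 2.2% lower. The 65 members of the 8 to 16 band gave the same counts, among named genes of that band of which 6.56% were higher and 3.67% lower with tamoxifen, 5.08% higher and 2.23% lower with estradiol, and 1.04% higher and 1.45% lower between tamoxifen and estradiol. With the vehicle doubled, SDHD (1 gene) was higher with tamoxifen and NDUFV3 (1 gene) lower, against 7.13% and 3.64% of all named genes, and none was higher or lower with estradiol, against 4.39% and 1.92%. With counts this small, the members' shares cannot be set apart from the background. The median difference over the 72 genes was 0.03 for tamoxifen minus vehicle, 0.01 for estradiol minus vehicle and -0.03 for tamoxifen minus estradiol. Over all named genes above the floor the same medians were 0.02, 0.02 and -0.02.

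Although few genes passed the size rule, the members did not all sit at 0. With tamoxifen, 37 of the 72 were above vehicle and 35 below, and the middle 50% of the differences ran between -0.25 and 0.18. With estradiol, 36 were above vehicle and 36 below, with quartiles of -0.14 and 0.18. Of all named genes, 47.9% were below vehicle with tamoxifen and 46.7% with estradiol. This even split depended on the vehicle scale: with the vehicle doubled, 44 of the 72 genes were above it and 28 below with tamoxifen, and 45 above and 27 below with estradiol, while 43.1% and 38.9% of all named genes were below. Doubling turned the direction of 7 of the 72 genes with tamoxifen: ATP5MC1, ATP5MC2, ATP5PB, NDUFA6, NDUFA9, NDUFS6 and UQCRQ. With estradiol it turned 11: ATP5MC1, ATP5MC2, ATP5ME, COX5A, COX7A2, COX8A, NDUFA9, NDUFA10, NDUFA13, NDUFS3 and NDUFS6. The typical size of a difference (the median of its absolute value) was 0.20 for tamoxifen minus vehicle and 0.17 for estradiol minus vehicle, against 0.23 and 0.20 for all named genes above the floor. Between tamoxifen and estradiol the typical size was 0.08, against 0.16 for all named genes above the floor. Among named genes of the 8 to 16 band the typical sizes were 0.22, 0.19 and 0.14 in the same order. The ligand arrays were thus nearer to each other than to vehicle for these genes, as they were for all named genes. The plot of differences by complex shows that the range from lowest to highest gene within a complex was wider than the gaps between the medians of complexes.

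**Figure D1:**
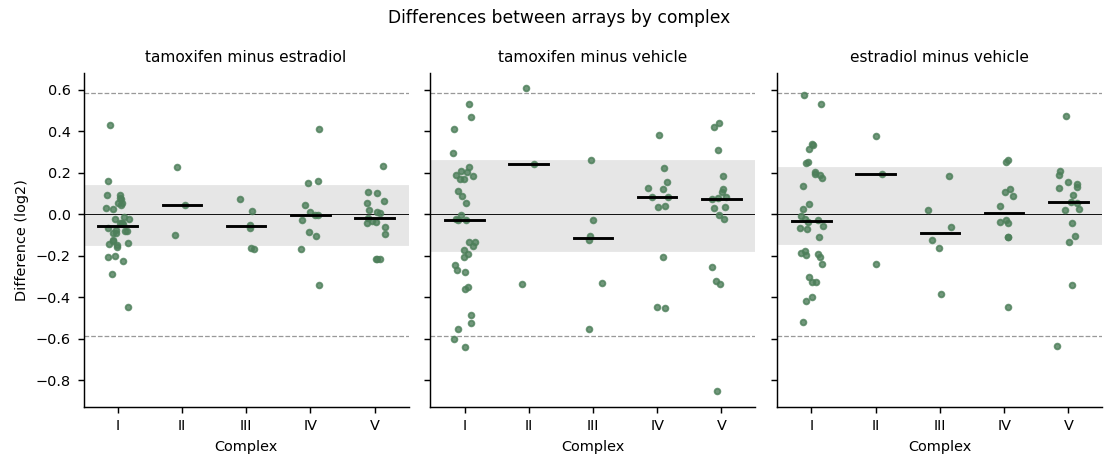
Differences in log2 value between arrays for the 72 respiratory chain genes above the brightness floor, by complex (x axis), for tamoxifen minus estradiol, tamoxifen minus vehicle and estradiol minus vehicle. Each point is 1 gene, black bars are medians, the grey band holds the middle 50% of all named genes in the 8 to 16 band, and dashed lines mark 1.5-fold. All points of the left panel lie between -0.45 and 0.43, inside the dashed lines.

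Complex I, the NADH dehydrogenase, had 35 of the 79 genes, of which 34 lay above the floor. Its median difference was -0.03 for tamoxifen minus vehicle and -0.03 for estradiol minus vehicle, with 20 of 34 genes below vehicle in each. Under a doubled vehicle 17 of 34 were below it with tamoxifen and 15 with estradiol, so the majority below vehicle did not hold on that scale. The core subunits carry the flavin and the iron-sulfur clusters. NDUFV1, the flavoprotein that binds NADH, had a value of -0.75 with tamoxifen, -0.55 with estradiol and -0.23 with vehicle. Its differences from vehicle were -0.53 and -0.33, short of 1.5-fold, and vehicle was the highest of the 3 arrays. A further probe set of NDUFV1, in the 4 to 8 band, differed by -0.09 with tamoxifen and 0.03 with estradiol. NDUFS7, an iron-sulfur subunit near the ubiquinone site, had -0.58 with tamoxifen, -0.63 with estradiol and -0.22 with vehicle. The probe sets of NDUFS7 differed from vehicle by -0.64 and -0.09 with tamoxifen and by -0.46 and -0.37 with estradiol. NDUFS1, the largest iron-sulfur subunit, stood at -0.02 with tamoxifen, -0.10 with estradiol and 0.01 with vehicle. NDUFV2, a further iron-sulfur subunit, stood at 0.11, 0.07 and -0.18, with vehicle the lowest. The core subunits therefore lay on both sides of vehicle, and NDUFS3 (-0.17 for tamoxifen minus vehicle and -0.02 for estradiol minus vehicle) lay between them.

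The accessory subunits of complex I surround the core and are needed for its assembly or stability. NDUFA11, a membrane-arm subunit, had -0.93 with tamoxifen, -0.85 with estradiol and -0.33 with vehicle. It was 1.52-fold lower with tamoxifen than with vehicle (-0.60) and 1.43-fold lower with estradiol (-0.52). Doubling the vehicle gave -0.27 and -0.19, inside 1.5-fold. The probe sets of NDUFA11 above the floor are all of a type that can match several transcripts. NDUFV3, a small subunit of the NADH-binding part, had -0.58 with tamoxifen, -0.14 with estradiol and 0.06 with vehicle, so that the tamoxifen array alone was low. It was 1.56-fold lower with tamoxifen than with vehicle (-0.64), and its tamoxifen minus estradiol difference of -0.45 was the lowest of all 72 genes. Doubling the vehicle left -0.70. A further probe set of NDUFV3, in the 4 to 8 band, differed by 0.00 for tamoxifen minus vehicle and 0.01 for estradiol minus vehicle, so the lower value rests on 1 probe set, of a type that can match several transcripts.

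Other accessory subunits of complex I lay lower without passing 1.5-fold. NDUFA3, a membrane-arm subunit, differed from vehicle by -0.55 with tamoxifen and -0.40 with estradiol. NDUFA10 differed by -0.49 and -0.20. NDUFB7 differed by -0.35 and -0.33. In all 3 of these genes both ligand arrays were below vehicle, as in NDUFS6, a small subunit of the peripheral arm (-0.21 and -0.30). Doubling the vehicle turned NDUFS6 to 0.15 with tamoxifen and 0.06 with estradiol, and NDUFA10 to 0.10 with estradiol. At the other end, NDUFB4, a subunit of the membrane arm, had 0.60 with tamoxifen, 0.65 with estradiol and 0.07 with vehicle. This gave differences of 0.53 and 0.57, or 0.07 and 0.16 averaged with its probe set below the floor. NDUFA1, which is encoded on the X chromosome, had 0.73 with tamoxifen, 0.80 with estradiol and 0.27 with vehicle, and differed by 0.47 and 0.53. NDUFB3 differed by 0.41 with tamoxifen and 0.34 with estradiol. These 3 genes had the highest differences of complex I with tamoxifen, and none reached 1.5-fold. NDUFB11 was above vehicle with estradiol (0.34) and nearer to it with tamoxifen (0.11). NDUFA5 stood at 0.17 with tamoxifen, -0.26 with estradiol and -0.02 with vehicle, and its tamoxifen minus estradiol difference of 0.43 was the highest among the 72 genes.

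Of the noncoding genes named for complex I, NDUFV1-DT starts 230 bases from NDUFV1 on the opposite strand. It had 0.08 with tamoxifen, -0.08 with estradiol and -0.01 with vehicle, and did not follow the lower values of NDUFV1. NDUFB2-AS1 differed from vehicle by -0.13 with tamoxifen and -0.01 with estradiol, while NDUFB2 differed by 0.05 and 0.19. NDUFV2-AS1 lay below the floor. Values of antisense pairs are given as the annotation names them.

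Promoter windows are printed for the genes past 1.5-fold that have an entry in the sequence table (SDHD, NDUFA11 and NDUFV3) and for NDUFB4, which had the highest differences from vehicle in complex I on the deposited scale, so that the letters searched can be seen beside the values. Each runs 5′ to 3′ on the strand of the gene over 250 bases before and 50 after its start, from RefSeq on GRCh38.p14. Capitals mark matches on either strand to the NRF1 motif (a palindrome, spelled by the first run of capitals in the SDHD window), CCGGAAG (GABPA and other ETS factors), AAGATGGC (YY1) or TCAAGGTCA (estrogen-related receptor alpha), and no match overlapped another in these windows. The windows lie at chr11:112086623-112086922 (SDHD, plus strand), chr3:120596086-120596385 (NDUFB4, plus strand), chr19:5903741-5904040 (NDUFA11, minus strand) and chr21:42893059-42893358 (NDUFV3, plus strand).
SDHD: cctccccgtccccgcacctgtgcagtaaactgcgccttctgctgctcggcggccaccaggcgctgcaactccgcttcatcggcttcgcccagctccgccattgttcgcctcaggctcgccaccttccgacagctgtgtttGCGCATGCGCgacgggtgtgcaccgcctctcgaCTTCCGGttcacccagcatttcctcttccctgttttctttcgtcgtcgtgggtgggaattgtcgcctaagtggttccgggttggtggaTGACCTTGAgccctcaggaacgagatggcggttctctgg
NDUFB4: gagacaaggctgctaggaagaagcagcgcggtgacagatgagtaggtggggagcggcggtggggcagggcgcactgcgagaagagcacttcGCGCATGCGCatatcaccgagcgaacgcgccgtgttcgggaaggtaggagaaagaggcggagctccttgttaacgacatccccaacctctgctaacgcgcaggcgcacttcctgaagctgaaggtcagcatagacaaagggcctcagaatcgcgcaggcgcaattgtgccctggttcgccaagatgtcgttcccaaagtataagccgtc
NDUFA11: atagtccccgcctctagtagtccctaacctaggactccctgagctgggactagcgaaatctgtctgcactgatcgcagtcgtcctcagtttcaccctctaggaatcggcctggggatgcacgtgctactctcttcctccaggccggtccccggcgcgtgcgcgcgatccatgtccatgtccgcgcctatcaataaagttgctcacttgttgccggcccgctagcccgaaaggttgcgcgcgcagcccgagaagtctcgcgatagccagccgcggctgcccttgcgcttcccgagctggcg
NDUFV3: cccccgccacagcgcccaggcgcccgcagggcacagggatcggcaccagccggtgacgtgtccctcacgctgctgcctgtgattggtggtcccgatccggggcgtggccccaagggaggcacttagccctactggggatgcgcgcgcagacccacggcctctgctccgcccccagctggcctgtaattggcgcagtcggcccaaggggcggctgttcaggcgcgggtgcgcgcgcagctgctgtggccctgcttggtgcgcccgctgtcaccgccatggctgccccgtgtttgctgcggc
The SDHD window held 3 matches: NRF1 from 110 bases before the start, the ETS motif from 77 bases before it on the opposite strand, and the estrogen-related receptor motif from position 12 after it on the opposite strand. The NDUFB4 window held 1 NRF1 match, from 159 bases before the start. The windows of NDUFA11 and NDUFV3 had no match to these letters.

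Complex II, succinate dehydrogenase, also belongs to the tricarboxylic acid cycle and pumps no protons. Of its 3 genes analysed here, SDHD, a membrane anchor subunit that helps to bind ubiquinone, had 0.60 with tamoxifen, 0.37 with estradiol and -0.01 with vehicle. It was 1.52-fold higher with tamoxifen than with vehicle (0.61) and 1.30-fold higher with estradiol (0.38). Both ligand arrays were above vehicle, tamoxifen by more, and doubling the vehicle changed these differences to 0.61 and 0.38, the same to 2 decimals. SDHC, the other anchor subunit, stood at 0.15 with tamoxifen, 0.10 with estradiol and -0.09 with vehicle. Its differences from vehicle were 0.24 and 0.19. SDHA, the flavoprotein that oxidises succinate, stood at -0.50, -0.40 and -0.16 in the same order and differed by -0.34 and -0.24. Thus both anchors lay above vehicle with either ligand and the catalytic subunit below it.

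Complex III passes electrons from ubiquinol to cytochrome c. All 6 of its genes lay above the floor, 5 of them below vehicle with tamoxifen and 4 with estradiol (4 and 4 with the vehicle doubled), with medians of -0.12 and -0.09. UQCRC1, a core protein on the matrix side, had -0.87 with tamoxifen, -0.70 with estradiol and -0.31 with vehicle. It differed from vehicle by -0.55 with tamoxifen and -0.38 with estradiol, the lowest differences of the complex, and by -0.24 and -0.07 with the vehicle doubled. UQCRC2, its partner core protein, differed by -0.13 and -0.06. Of the small subunits, UQCRB, which lies near the ubiquinone site, was above vehicle with tamoxifen (0.26) and with estradiol (0.18), and UQCR11 was below it (-0.33 and -0.16). UQCR10 differed by -0.11 and -0.12, and UQCRQ by -0.03 and 0.02. A further probe set of UQCR10, in the 4 to 8 band, gave 0.32 with tamoxifen and 0.29 with estradiol. The place of UQCR10 among the genes below vehicle thus rests on its brighter probe set. No gene of complex III passed 1.5-fold in any comparison.

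Complex IV, cytochrome c oxidase, reduces oxygen, and several of its nuclear subunits exist as tissue forms. Of its 16 genes here, 12 lay above the floor. The 4 below it were the pseudogene COX6A1P1, the muscle form COX7A1, and COX6B2 and COX8C, forms known mainly from testis. Among the general forms, COX6A1 differed from vehicle by 0.16 with tamoxifen and 0.26 with estradiol. COX7B differed by 0.22 and 0.25. COX5A (0.12 and -0.04), COX5B (0.04 and 0.12), COX6C (0.08 and 0.09) and COX7C (0.08 and 0.04) all lay within 0.13 of vehicle. COX8A, the general form of the smallest subunit, had -0.56 with tamoxifen, -0.22 with estradiol and -0.11 with vehicle. Its tamoxifen minus estradiol difference of -0.34 was the lowest of the complex, and it differed from vehicle by -0.45 with tamoxifen and -0.11 with estradiol. COX6B1, which faces the intermembrane space, differed from vehicle by -0.21 with tamoxifen and -0.04 with estradiol.

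Of the tissue forms with a probe set above the floor, COX6A2, the heart and muscle form of COX6A1, had 0.41 with tamoxifen, 0.00 with estradiol and 0.03 with vehicle. Its tamoxifen minus estradiol difference was 0.41, the highest of complex IV. COX7B2, a paralog of COX7B, had -0.70 with tamoxifen, -0.70 with estradiol and -0.25 with vehicle, and differed from vehicle by -0.45 with either ligand. The lone probe set of each of these 2 genes lay in the 4 to 8 band. COX7A2, the general partner of the muscle form COX7A1, differed from vehicle by 0.04 with tamoxifen and -0.11 with estradiol. COX7A2L, which takes part in supercomplexes of complexes III and IV, differed by 0.12 and 0.11. The paralogs thus lay on either side of vehicle, with no gene of complex IV past 1.5-fold.

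Complex V is the ATP synthase, with a catalytic head in the matrix and a rotating ring in the membrane. Of its 19 genes, 17 lay above the floor, with median differences of 0.07 for tamoxifen minus vehicle and 0.06 for estradiol minus vehicle. ATP5F1D, the delta subunit of the central stalk, had -1.37 with tamoxifen, -1.15 with estradiol and -0.52 with vehicle. It was 1.81-fold lower with tamoxifen than with vehicle (-0.85) and 1.56-fold lower with estradiol (-0.64), the lowest difference among the 72 genes in each. Its other probe set, in the 4 to 8 band, gave -0.82 and -0.52. Its probe sets are all of types that can match several transcripts. Its vehicle value was itself the lowest of the 72 genes, and with that value doubled it differed by -0.34 and -0.12, inside 1.5-fold. Of the other head and stalk subunits, ATP5F1B, the catalytic beta subunit, had -0.37 with tamoxifen, -0.15 with estradiol and -0.05 with vehicle, and differed from vehicle by -0.32 and -0.10. ATP5F1A, the alpha subunit, differed by 0.08 and 0.06. ATP5F1C, the gamma subunit that turns inside the head, differed by 0.12 and 0.15. ATP5F1E, the epsilon subunit, differed by -0.03 and -0.13. In the plot of values by gene, ATP5F1D is the point farthest to the left.

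**Figure D2:**
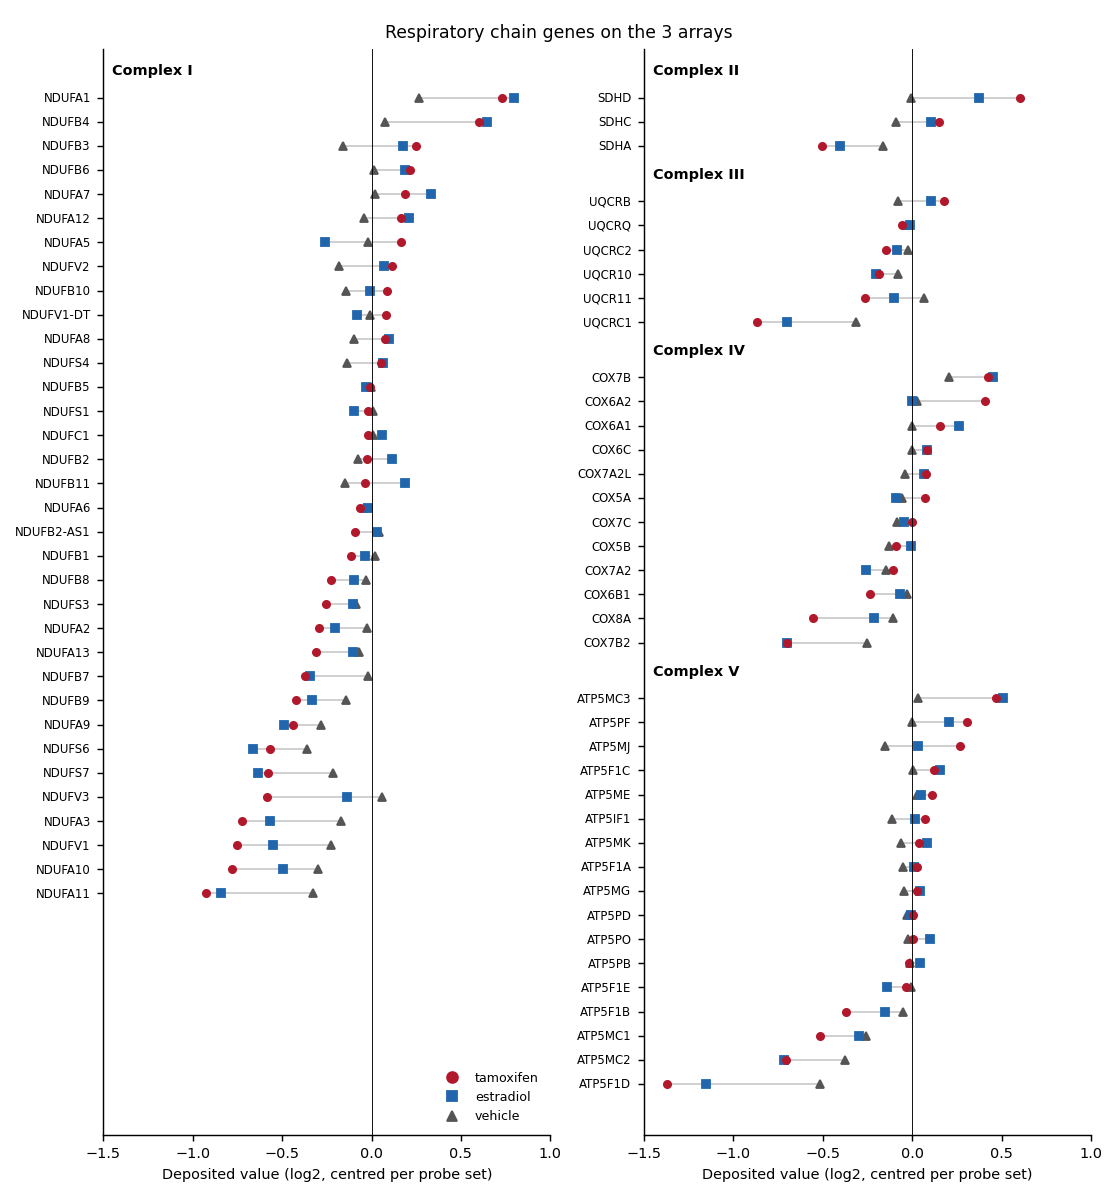
Deposited log2 values (x axis, centred per probe set) of the 72 respiratory chain genes above the brightness floor on the tamoxifen (circle), estradiol (square) and vehicle (triangle) arrays, grouped by complex and sorted by the tamoxifen value; each row is 1 gene and each symbol 1 array. Vehicle values run between -0.52 and 0.27, tamoxifen values between -1.37 and 0.73.

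The c subunit that forms the rotating ring is made from ATP5MC1, ATP5MC2 and ATP5MC3, which encode the same mature protein behind different import signals. ATP5MC3 had 0.47 with tamoxifen, 0.51 with estradiol and 0.03 with vehicle, and differed from vehicle by 0.44 and 0.47. ATP5MC2 had -0.71 with tamoxifen, -0.72 with estradiol and -0.37 with vehicle, and differed by -0.33 and -0.34. ATP5MC1 differed by -0.26 with tamoxifen and -0.04 with estradiol. On the deposited scale the 3 genes of this 1 protein lay on opposite sides of vehicle. With the vehicle doubled all 3 lay at or above it, ATP5MC1 at 0.00 and 0.22, ATP5MC2 at 0.04 and 0.03 and ATP5MC3 at 0.40 and 0.44, so the direction of ATP5MC1 and ATP5MC2 turned. ATP5IF1, the inhibitor that blocks the enzyme from running in reverse, differed by 0.19 with tamoxifen and 0.13 with estradiol. Among the peripheral stalk genes, ATP5PF differed by 0.31 and 0.21, while ATP5PB (-0.01 and 0.05), ATP5PD (0.03 and 0.02) and ATP5PO (0.03 and 0.13) stayed within 0.13. ATP5MJ, a small membrane subunit, differed by 0.42 with tamoxifen and 0.19 with estradiol, and its tamoxifen minus estradiol difference of 0.23 was the highest of complex V. The probe set of ATP5MF with a single symbol and that of the pseudogene ATP5MC2P1 lay below the floor.

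Probe sets of the same gene give the nearest available view of measurement scatter, although they share the array and can match different transcripts. Above the floor, 28 respiratory chain genes had several probe sets, and the median range between probe sets of 1 gene was 0.22 for tamoxifen minus vehicle, 0.22 for estradiol minus vehicle and 0.16 for tamoxifen minus estradiol. That range is as large as the typical difference of a gene (0.20, 0.17 and 0.08). Over 5367 genes with several probe sets, the median ranges were 0.35, 0.35 and 0.28. These genes were not matched to the respiratory chain genes by level band. The widest range among respiratory chain genes was that of ATP5F1C with tamoxifen, where a probe set in the 4 to 8 band differed from vehicle by -0.84 and 3 probe sets in the 8 to 16 band by 0.06 to 0.16. In NDUFS1 with estradiol the range was 0.87, with 1 probe set at -0.68 and 2 at 0.17 and 0.19. In ATP5MC3, 1 of 3 probe sets of the 8 to 16 band differed by 0.88 with tamoxifen and 0.96 with estradiol, while the others differed by 0.18 and 0.26 with tamoxifen and by 0.10 and 0.36 with estradiol. NDUFB8 had a probe set of the 4 to 8 band at -0.57 and -0.71, against -0.18 and -0.21 with tamoxifen and -0.14 and 0.02 with estradiol for its brighter ones. Counted by probe set, 2 of 116 were at least 1.5-fold higher and 6 lower with tamoxifen (background 8.2% and 5.95% of named probe sets above the floor), and 2 were higher and 4 lower with estradiol (7.01% and 4.61%). Between tamoxifen and estradiol 0 probe sets were higher and 1 lower (2.34% and 2.7%), a probe set of ATP5F1C.

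**Figure D3:**
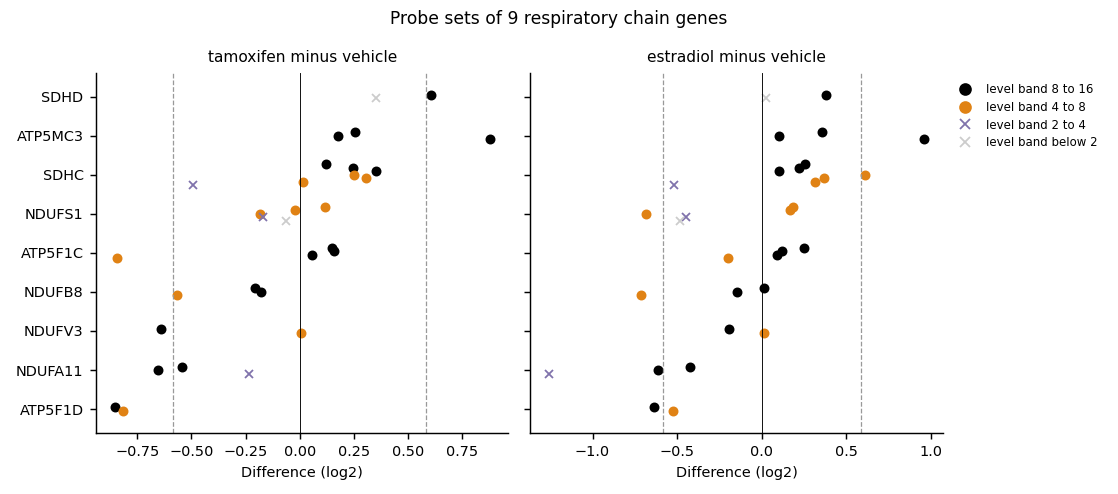
Difference from vehicle (x axis, log2) of every probe set of 9 respiratory chain genes, for tamoxifen (left) and estradiol (right); each point is 1 probe set, coloured by level band, crosses lie below the brightness floor and dashed lines mark 1.5-fold. The genes were picked after their values were seen. In ATP5F1C with tamoxifen 1 probe set lies at -0.84 and 3 between 0.06 and 0.16.

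Matches to the 4 motifs were counted in the 67 respiratory chain promoters of the sequence table, among 27305 promoters of the same length. The NRF1 letters stood in 4 of the 67 (5.97%), against 1.36% of all promoters and 2.39% of those of 9849 named genes above the floor. The ETS letters of GABPA stood in 17 (25.4%), against 10.7% and 19.1%. The YY1 letters stood in 10 (14.9%), against 3.03% and 5.34%. The estrogen-related receptor letters stood in 1 (1.49%), that of SDHD, against 0.359% and 0.173%. The 4 genes with the NRF1 letters (SDHD, NDUFB4, NDUFA8 and ATP5F1C) had median differences from vehicle of 0.35 with tamoxifen and 0.29 with estradiol, and all 4 lay above vehicle with either ligand, the lowest by 0.12 and 0.15. The 60 genes with a promoter entry above the floor and without these letters had medians of -0.01 and -0.02. The 17 genes with the ETS letters had medians of 0.03 and 0.02, and the 10 with the YY1 letters -0.01 and 0.04. The lowest of the NRF1 genes, ATP5F1C, depended on its probe sets: it stood at -0.12 and 0.07 with all of them averaged, and at -0.84 and -0.20 from the 1 left without the types that can match several transcripts. With 4 genes, and no replicate, the NRF1 values are a description only.

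By chromosome, a split chosen after the values were seen, the 9 respiratory chain genes of chromosome 19 lay lower than the other 63. These 9 were ATP5F1D, COX6B1, NDUFA3, NDUFA7, NDUFA11, NDUFA13, NDUFB7, NDUFS7 and UQCR11. Their median difference was -0.35 for tamoxifen minus vehicle, against 0.05 for the other 63 genes, and 8 of the 9 were below vehicle. For estradiol minus vehicle their median was -0.33, against 0.02, again with 8 of 9 below vehicle. NDUFA7 was the exception in each, at 0.17 with tamoxifen and 0.31 with estradiol. Chromosome 19 genes in general also lay lower, but by less: the 287 named genes of chromosome 19 in the 8 to 16 band had medians of -0.14 with tamoxifen and -0.11 with estradiol, against 0.05 and 0.04 for the 4691 on other chromosomes. Of these 287 genes, 70.4% were below vehicle with tamoxifen and 70.0% with estradiol, against 43.4% and 43.1% of the 4691. With the vehicle doubled the medians of the 9 genes were -0.27 and -0.19, against 0.12 and 0.07 for the other 63, and those of the 287 genes -0.06 and -0.02. On that scale 8 of the 9 were below vehicle with tamoxifen and 7 with estradiol, against 58.5% and 54.7% of the 287. The difference between the chromosomes was not tested.

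**Figure D4:**
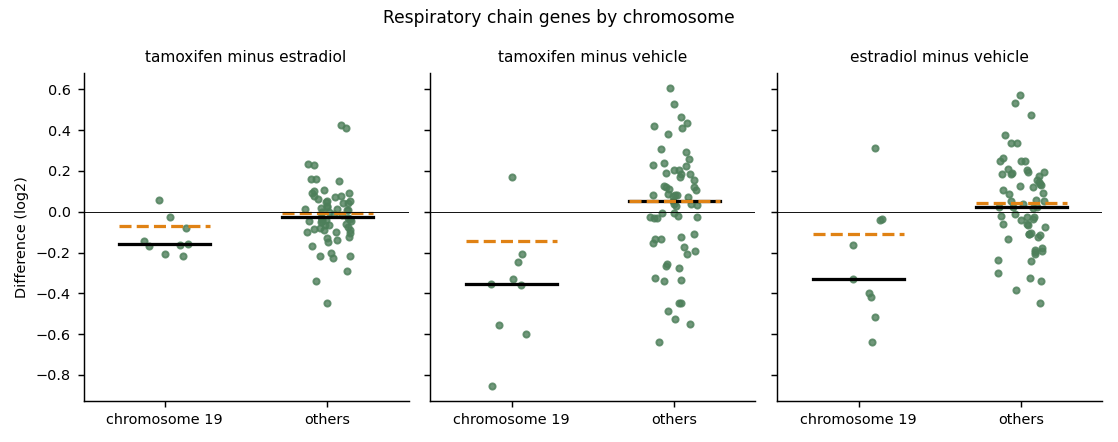
Differences in log2 value between arrays (y axis) for respiratory chain genes on chromosome 19 (9 genes) and on other chromosomes (63 genes); points are genes, black bars their medians, and orange dashed bars the medians of all named genes of the 8 to 16 band on the same chromosomes. The chromosome 19 genes have medians of -0.16, -0.35 and -0.33 in the panels from left to right.

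Assembly factors build the complexes and are not part of them. For complex I, all 19 listed factors lay above the floor, with medians of 0.00 for tamoxifen minus vehicle and 0.04 for estradiol minus vehicle. TMEM126B, which helps to build the membrane arm, was higher with tamoxifen (0.61) and estradiol (0.65), and FOXRED1 was lower with tamoxifen (-0.67), where estradiol gave -0.33. Doubling the vehicle left none of these past 1.5-fold (0.42, 0.45 and -0.46) and put NDUFAF4 past it (0.85 and 0.74). The 4 factors of complex II had medians of -0.29 and -0.21 and none passed the size rule, although SDHAF3 differed by 0.51 with tamoxifen and -0.05 with estradiol. For complex III, 1 of 9 factors passed it, UQCC3, which was lower with tamoxifen (-0.76) and estradiol (-0.63), and stood at -0.18 and -0.05 with the vehicle doubled. For complex IV, 24 of 25 factors lay above the floor. COX18, which inserts a mitochondrially encoded subunit into the membrane, was higher with tamoxifen (0.61) and estradiol (0.70), and SCO2, a copper chaperone, was lower with tamoxifen (-0.60), with -0.42 for estradiol. Under a doubled vehicle COX18 stood at 0.40 and 0.49 and SCO2 at -0.49 and -0.32. None of the 5 factors of complex V passed, and ATPAF2 differed by -0.46 with tamoxifen and -0.06 with estradiol. TMEM70 passed with estradiol when the vehicle was doubled (0.59). Of all 61 factors above the floor 2 were higher and 3 lower with tamoxifen, against 6.97% and 4.33% of all named genes, and 2 were higher and 1 lower with estradiol, against 5.83% and 2.65%. These counts are too small to set apart from the background.

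Of cytochrome c and 5 subunits or partners outside the symbol rule that lay above the floor, 1 passed 1.5-fold. It was higher with tamoxifen, where 6.97% of all named genes were higher. CYCS, cytochrome c itself, differed from vehicle by 0.23 with tamoxifen and 0.18 with estradiol. CYC1, the cytochrome subunit of complex III, differed by -0.29 and -0.11. COX4I1, the general form of a large nuclear subunit of complex IV, differed by -0.18 and -0.06, and its paralog COX4I2 lay below the floor. HIGD1A, a hypoxia-inducible assembly helper, had 0.67 with tamoxifen, 0.34 with estradiol and 0.02 with vehicle, and was higher past 1.5-fold with tamoxifen alone (0.65, against 0.32 with estradiol). Of the 7 mitochondrially encoded genes measured, COX1 (0.17 and 0.15), COX2 (0.04 and 0.04), ND2 (0.21 and 0.21) and ND4 (0.04 and 0.00) were within 0.21 of vehicle with either ligand. With the vehicle doubled ND2 turned to -0.08 with either ligand. COX3 stood at 0.13 with tamoxifen, -0.44 with estradiol and -0.05 with vehicle, and its tamoxifen minus estradiol difference was 0.57. ATP6 stood at 0.60 with tamoxifen, 0.09 with estradiol and 0.06 with vehicle. ND6, the gene on the light strand of mitochondrial DNA, stood at -1.15, -1.79 and -0.74, and was lower with estradiol (-1.05, or -0.32 with the vehicle doubled). Its tamoxifen minus estradiol difference was 0.64, also past 1.5-fold. Of all named genes, 2.65% were lower with estradiol and 1.57% higher with tamoxifen than with estradiol.

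Among 17 regulators of mitochondrial biogenesis above the floor, PPARGC1A, a coactivator of NRF1 and of the estrogen-related receptors, had 1.21 with tamoxifen, 0.37 with estradiol and 0.32 with vehicle. The tamoxifen array alone was high, by 0.89 over vehicle and by 0.84 over estradiol. Doubling the vehicle left the first of these at 0.58, just inside 1.5-fold, and put estradiol minus vehicle at -0.26. GABPA, the ETS factor whose motif is given above, had 1.05 with tamoxifen, 1.24 with estradiol and 0.45 with vehicle. It was higher than vehicle by 0.60 with tamoxifen and 0.79 with estradiol, and by 0.15 and 0.34 with the vehicle doubled. Both PPARGC1A and GABPA lay in the 4 to 8 band. NRF1 itself differed by -0.13 with tamoxifen and -0.25 with estradiol. TFAM, the packaging and transcription factor of mitochondrial DNA, differed by -0.12 and -0.41. ESRRA, the estrogen-related receptor alpha, differed by 0.08 and 0.09. Of the 17 regulators, 2 were higher and 0 lower with tamoxifen, against 6.97% and 4.33% of all named genes. With estradiol 1 was higher and 0 lower, against 5.83% and 2.65%. Between tamoxifen and estradiol 1 (PPARGC1A) was higher and 0 lower, against 1.57% and 2.2%. The median of the 17 regulators was 0.01 with tamoxifen and -0.05 with estradiol, so that the higher values of GABPA and PPARGC1A did not extend to the list as a whole. Under a doubled vehicle neither passed 1.5-fold, and PPARGC1B (0.60) and TFB2M (0.59) passed it with tamoxifen, where 7.13% of all named genes were higher.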

How the data were processed

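Biotin-labelled total RNA of 3 samples, 1 per treatment, was measured on Affymetrix arrays, per the labels' protocols. The authors deposited 1 log2 value per probe set and array (54675 probe sets, 3 columns). RMA, a background correction and quantile normalisation with probe summary, is named in the submitters' processing notes, and its version and the centring of the values are not given in the sources used here.

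From there, probe sets were named through the platform annotation table supplied with the values: 41097 had 1 symbol, 1801 several and 11777 none. Only those with 1 symbol were used, which left out 15 probe sets that share a respiratory chain symbol with another gene. Each value was placed in a level band (below 2, 2 to 4, 4 to 8 or 8 to 16, log2) from the finest binary step of its single-precision digits over the 3 columns, the vehicle column shifted by 1 step. Of probe sets for cytosolic ribosomal proteins 88.0% lay above the floor of 4, and of those for olfactory receptors 13.1%. Probe sets of a gene were averaged within the brightest band they reached. Differences between columns were read against a 1.5-fold size rule, with no test. The genes named are, per complex and comparison, the 3 highest and 3 lowest, every gene past 1.5-fold, and core subunits and paralogs listed by name, and up to 4 genes with the largest differences of each other list. Any further gene was picked with its values in view. The members and lists were chosen with earlier results of these data known. The band and difference steps were tested on simulated data. Python 3.11.15 with numpy 2.4.6, pandas 2.3.3 and matplotlib 3.10.9 was used. Alternatives were the size rule, the floor, the probe sets averaged, centring and a doubled vehicle.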

Additional observations from a re-analysis of the deposited data

How the results depend on the processing

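The median difference over respiratory chain genes moved by less than 0.1 in each comparison under every alternative run. With a 2-fold rule, 0 genes were higher and 0 lower with tamoxifen, and 0 lower with estradiol. With no brightness floor, 2 genes were lower with estradiol, the added gene being ATP5MF. With all probe sets of a gene averaged, 0 were higher and 1 lower with tamoxifen (ATP5F1D), and the gene lower with estradiol was NDUFA11. This average also took in probe sets below the floor. That of NDUFA11, in the 2 to 4 band, stood at -1.26 with estradiol. That of SDHD, in the band below 2, stood at 0.35 with tamoxifen. Without the probe set types that can match several transcripts, 51 genes were left, with 0 lower with estradiol, 1 lower with tamoxifen and 1 lower between tamoxifen and estradiol, in both cases ATP5F1C. ATP5F1D and NDUFA11 were not among the 51, since all their probe sets above the floor are of these types. These counts therefore do not bear on the lower values of ATP5F1D and NDUFA11. NDUFV3 then stood at 0.0050 for tamoxifen minus vehicle, from its other probe set. With the vehicle doubled, 0 were lower with estradiol and 1 lower with tamoxifen (NDUFV3). A floor of 8 and centring on the median of all named genes left these counts as they were. For single genes and complexes, 43 of 147 values moved by over 0.1 with all probe sets averaged, and 43 of 100 with the vehicle doubled. Without the probe set types that can match several transcripts, 21 of 111 moved. There 1 more, NDUFV3 as above, reversed, a label kept for genes past 1.5-fold. Smaller values that changed sign were counted by size of change only, such as UQCR10, which then stood at 0.32 with tamoxifen and 0.29 with estradiol. The cause of these changes was not tested. No paired analysis was possible because each group had 1 array.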

Other observations

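Other mitochondrial gene groups, listed from textbook knowledge, were read by the same rule. Of all named genes, 6.97% were higher and 4.33% lower with tamoxifen, and 5.83% higher and 2.65% lower with estradiol. With the vehicle doubled these shares were 7.13% and 3.64% with tamoxifen and 4.39% and 1.92% with estradiol. No group was tested against these shares. Of 16 tricarboxylic acid cycle genes above the floor, IDH3A was higher with tamoxifen (0.60, against 0.41 with estradiol) and IDH3B lower (-0.62, against -0.55). These encode subunits of the same NAD-dependent isocitrate dehydrogenase. With the vehicle doubled they stood at 0.49 and -0.30 with tamoxifen. OGDH, a subunit of the oxoglutarate dehydrogenase complex, stood at 0.00 with tamoxifen, -0.46 with estradiol and 0.01 with vehicle. Of 19 protein import genes TIMM8A passed the size rule, higher with tamoxifen (0.63) and estradiol (0.70). TIMM8A did not pass under a doubled vehicle (0.32 and 0.39), while HSPE1 (0.78) and TIMM17B (0.61) passed with tamoxifen. MFN1, a fusion factor of the outer membrane, was higher with tamoxifen (0.68) and estradiol (0.66), alone among 13 genes of carriers and dynamics, and stood inside 1.5-fold with the vehicle doubled (0.51 and 0.49). None of the 11 ubiquinone synthesis genes passed on the deposited scale, with medians of -0.13 for tamoxifen minus vehicle and 0.06 for estradiol minus vehicle. PDSS2 passed with tamoxifen under a doubled vehicle (0.60).

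Of 12 genes of mitochondrial quality control and antioxidant defence, 2 were higher and 2 lower with tamoxifen, against 6.97% and 4.33% of all named genes. With estradiol 2 were higher and 1 lower, against 5.83% and 2.65%. SOD2, the matrix superoxide dismutase, stood at -1.04 with tamoxifen, -0.59 with estradiol and 0.24 with vehicle. It was lower with tamoxifen (-1.28) and estradiol (-0.83), and stayed lower with the vehicle doubled (-1.53 and -1.07). UCP2, an inner membrane carrier, was lower with tamoxifen (-0.97, against -0.56 with estradiol) and, with the vehicle doubled, with either ligand (-1.02 and -0.62), and BNIP3, a mitophagy receptor, was higher with either ligand (0.73 and 0.73), or 0.47 and 0.47 with the vehicle doubled. PRDX3, a mitochondrial peroxiredoxin, was higher by 0.80 with tamoxifen and 0.74 with estradiol, and by 0.26 and 0.20 with the vehicle doubled. PDK1, a kinase that switches off pyruvate dehydrogenase, passed 1.5-fold only on the doubled scale (0.71 and 0.59). The 76 genes named for mitochondrial ribosomal proteins include the antisense gene MRPL20-AS1. Of them 2 were higher and 3 lower with tamoxifen, against 6.97% and 4.33% of all named genes. With estradiol 0 were higher and 2 lower, against 5.83% and 2.65%. The medians of the 76 genes were -0.14 and -0.05. On the doubled scale 3 were higher and 2 lower with tamoxifen, against 7.13% and 3.64% of all named genes. With estradiol 2 were higher and 1 lower on that scale, against 4.39% and 1.92%. MRPL13 entered with either ligand (0.61 and 0.60), MRPL39 entered with estradiol alone (0.60, against 0.55 with tamoxifen), and MRPL12 left (-0.37 and -0.21).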
